A study of Homo sapiens with 6 samples.

Results

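The MHC class I antigen presentation pathway was followed through 9 genes in CAL27, an established human line from a squamous carcinoma of the tongue: the heavy chain genes HLA-B, HLA-C, HLA-E and HLA-F, the light chain gene B2M, the transporter genes TAP1 and TAP2, the tapasin gene TAPBP, and NLRC5, which encodes an activator of class I transcription. They were chosen by name, with earlier results of these data known. Each of the 9 symbols matched 1 row among the 60564 genes of the count table. Cells of both groups had been infected with a lentivirus, grown in medium with 10% serum and selected for 2 weeks in puromycin at 5 μg/ml. In the CNTNAP2-203 OE group (overexpression) the virus carried CNTNAP2-203, a transcript of CNTNAP2. In the control group, whose genotype is labelled WT and whose sample descriptions name EGFP, it carried a control vector. Each group held 3 libraries, and the labels say neither whether these were separate cultures or infections nor whether the lines were clones or pools, so the p-values measure library-to-library spread alone, and that spread may be technical.

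Class I molecules display peptides from inside the cell to CD8 T cells. A heavy chain pairs with beta-2-microglobulin in the endoplasmic reticulum, where tapasin holds it beside the TAP transporter until a peptide cut by the proteasome and brought in by TAP has been bound. Without the light chain or a peptide, classical class I molecules largely fail to reach the cell surface, and squamous carcinomas are among the tumours in which loss of this pathway is known. Interferon raises most of these genes together, through interferon response elements and through NLRC5, which acts at a shared promoter module.

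Library totals ranged from 36843190 to 42412703 counts. The targeted gene checked the labels: CNTNAP2 counts were 0, 3 and 4 in control and 140022, 156055 and 119280 in CNTNAP2-203 OE. The labels say that the reverse reads of control replicate 1 were missing at submission; whether its deposited counts used them is not stated. CNTNAP2-203 OE replicate 3 had the fewest genes with a count (25336, against 26418 to 27002 in the others) and stood apart. Its root mean square difference in log2 CPM, counts scaled to library size, was 0.720 and 0.740 from the other libraries of its group, which differed from each other by 0.565. The 8 squamous epithelial markers summed to between 13710 and 15561 CPM in control and between 13825 and 17008 CPM in CNTNAP2-203 OE. The 8 leukocyte markers summed to between 52.6 and 71.6 CPM and to between 56.8 and 64.8 CPM, mostly CD14 and CD68, with PTPRC and LYZ at no more than 10 counts in any library. The fibroblast markers summed to between 38.5 and 45.1 CPM and the endothelial markers to between 5.97 and 11.5 CPM over all 6 libraries. In bulk RNA, fewer cells expressing a gene and less RNA per cell cannot be told apart.

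None of the 9 genes passed the test between CNTNAP2-203 OE and control. The test was edgeR's quasi-likelihood test with Benjamini-Hochberg adjustment over 18786 genes at 0.05, by which 1.39% of all tested genes were called. All 9 genes passed the filter on low counts, with between 1505 and 76298 counts in a library. At an unadjusted p under 0.05 there was 1, HLA-C, against 17.2% of all tested genes. The log2 fold change was negative for 7 of the 9 genes, with a median of -0.10, beside a median of 0.00 over all tested genes. In 4 of them, HLA-C, B2M, TAP1 and TAPBP, the groups did not overlap, which was so for 26.5% of all tested genes. DESeq2, which called 7.62% of the genes it adjusted, limma-voom, and limma-trend on the deposited log2 values called none of the 9 either. At an unadjusted p under 0.05, HLA-C was the 1 member by DESeq2, against 17.2% of all genes in that fit, and by limma-voom, against 17.4%. HLA-C, HLA-E and TAP1 were the 3 members by limma-trend, against 17.9% of all genes.

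**Figure D1:**
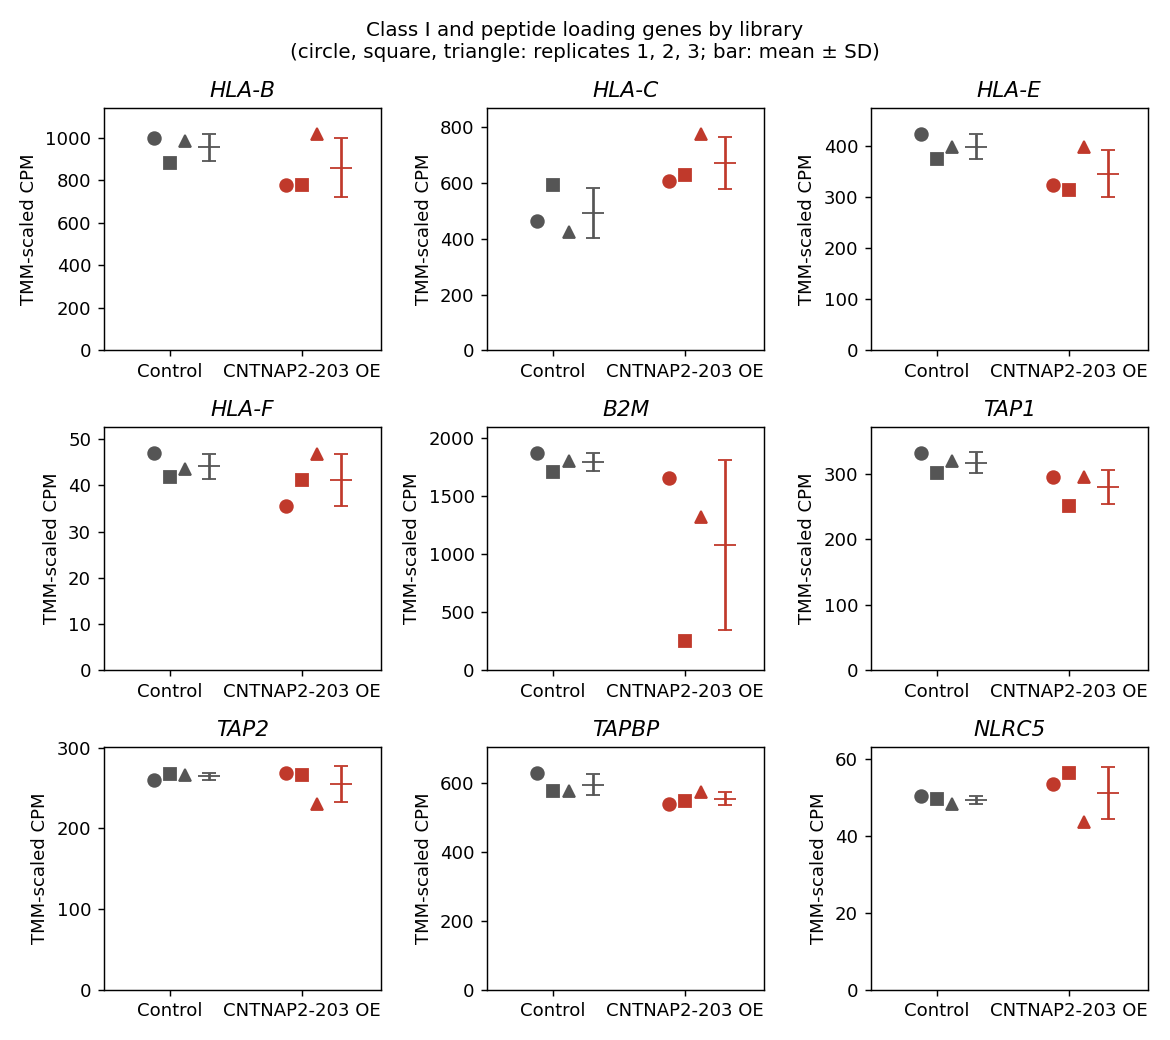
TMM-scaled CPM (y axis, from 0) of the 9 genes in each library, with control libraries in grey and CNTNAP2-203 OE libraries in red; circles, squares and triangles are replicates 1, 2 and 3, and the bar is the mean ± SD of 3 libraries. HLA-C lies higher in all CNTNAP2-203 OE libraries, and B2M is at 254 CPM in CNTNAP2-203 OE replicate 2.

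On the length-scaled scale, FPKM recovered from the deposited log2 values, HLA-B and B2M had the highest values of the 9 genes in control. The order on this scale depends on the length assigned to each gene, and the annotation behind those lengths is not given. By raw counts, B2M (74156, 67546 and 76298) exceeded HLA-B (39654, 34911 and 41597) in control replicates 1, 2 and 3. In control, HLA-B was at 260.2 ± 16.0 FPKM (SD, n = 3) and B2M at 245 ± 9.97 FPKM, with ranges that overlapped. HLA-C followed at 163 ± 30.0, HLA-E at 113 ± 6.63, TAPBP at 97.5 ± 4.77, TAP1 at 54.8 ± 2.47, TAP2 at 34.3 ± 0.612, HLA-F at 8.45 ± 0.485 and NLRC5 at 3.29 ± 0.0812 FPKM. From B2M downward, neighbours in this order did not overlap between the control libraries. On this scale, HLA-B exceeded 99.5% of the tested genes, whereas NLRC5 exceeded 56.7% of them. In CNTNAP2-203 OE the order was the same except that HLA-C, at 215 ± 22.3 FPKM, came before B2M, at 141 ± 96.5 FPKM. In that group the ranges of neighbours from HLA-B through HLA-C, B2M and HLA-E to TAPBP overlapped.

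HLA-C and HLA-B encode classical heavy chains that present peptides to T cells, and HLA-C is also the main ligand of the inhibitory killer cell receptors of natural killer cells. HLA-C was at 463, 592 and 424 CPM in control replicates 1, 2 and 3, and at 607, 630.1 and 778 CPM in CNTNAP2-203 OE replicates 1, 2 and 3. Every CNTNAP2-203 OE library lay above every control, but control replicate 2 was closer to CNTNAP2-203 OE replicates 1 and 2 than to the other controls. The difference was 1.36-fold, a log2 fold change of 0.45 (SE 0.155, 95% interval 0.09 to 0.80, edgeR adjusted p = 0.200), with an unadjusted p of 0.0206. Leaving out 1 library at a time gave log2 fold changes of 0.32 to 0.60, the highest without control replicate 2. Without control replicate 1, control replicate 3 or CNTNAP2-203 OE replicate 3, its unadjusted p was no longer under 0.05.

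HLA-B did not follow HLA-C. Its values were 999.7, 884 and 985 CPM in control and 781, 780.5 and 1021 CPM in CNTNAP2-203 OE, so that replicates 1 and 2 lay below every control and replicate 3 above every control. The log2 fold change was -0.15 (SE 0.131, 95% interval -0.45 to 0.15, edgeR adjusted p = 0.590). Without CNTNAP2-203 OE replicate 3 it was -0.30 (edgeR adjusted p = 0.0994), in a fit that called 2.8% of all genes.

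Promoter sequence upstream of these genes is shown because HLA-B and HLA-C, whose values went different ways, share most of it, and that of B2M because the light chain gene is controlled by the same kinds of element. The sequences are RefSeq windows on GRCh38.p14, 5′ to 3′ on the strand of the gene, cut to the part that holds motif matches; they are reference alleles, and those of CAL27 were not used here. Capitals mark matches on either strand to the ISRE core (interferon-stimulated response element: GAAA, any 2 bases, GAAA), GAANNGAAA (a looser form, chosen after the windows were read), TTCNNNGAA (a STAT site), CCAAT (the Y box), TGACG (the X2 box or cyclic AMP element) or a kappaB-like motif (GGG, any 4 bases, CCC).
HLA-B, chr6:31357221-31357366, minus strand: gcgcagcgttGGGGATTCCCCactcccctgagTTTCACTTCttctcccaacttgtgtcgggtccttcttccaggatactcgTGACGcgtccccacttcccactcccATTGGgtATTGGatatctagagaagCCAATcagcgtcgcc
HLA-C, chr6:31272134-31272294, minus strand: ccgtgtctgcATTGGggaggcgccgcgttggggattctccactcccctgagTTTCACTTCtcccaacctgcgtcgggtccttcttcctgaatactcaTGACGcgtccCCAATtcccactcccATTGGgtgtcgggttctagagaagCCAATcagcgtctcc
B2M, chr15:44711363-44711482, plus strand: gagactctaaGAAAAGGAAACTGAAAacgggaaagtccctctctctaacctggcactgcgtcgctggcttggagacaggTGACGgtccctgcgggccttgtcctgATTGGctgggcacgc

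Over the 250 bases before the start, HLA-B and HLA-C were identical at 89.0% of aligned positions, and HLA-B and B2M at 47.3%. Both heavy chain windows hold TTTCACTTC, a TGACG and CCAAT on both strands. The kappaB-like letters are present upstream of HLA-B, as 2 matches that overlap each other, and were not found in the HLA-C window. B2M holds 2 overlapping matches of the ISRE core, and matches of it also lie upstream of HLA-F, TAP1, TAP2 and TAPBP, of the 7 members with a window. In all RefSeq windows of this length, the ISRE core was found in 3.02%, GAANNGAAA in 6.56%, TTCNNNGAA in 6.57%, CCAAT in 32.0%, TGACG in 21.2% and the kappaB-like motif in 16.1%. In TAP2 the match of GAANNGAAA overlaps that of the ISRE core. TTCNNNGAA matched in 1 of the 2 windows of TAP1 and in no other member.

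The ratio of the 2 classical heavy chains within a library needs no scaling between libraries. There were 2.16, 1.49 and 2.32 HLA-B counts for each HLA-C count in control, and 1.29, 1.24 and 1.31 in CNTNAP2-203 OE. The CNTNAP2-203 OE libraries lay close together and below every control, and control replicate 2 was the nearest control. The means were 1.99 ± 0.440 in control and 1.28 ± 0.0373 in CNTNAP2-203 OE (SD, n = 3 each; exact two-sided permutation test on log ratios, p = 0.1, the smallest that 3 against 3 libraries allow). This ratio was chosen after its values were seen, and adjusted over the 9 ratios tested its p was 0.3. Summed over both genes, counts were 58009, 58284 and 59503 in control and 58791, 58264 and 62941 in CNTNAP2-203 OE. As 1 row in the fit, the sum had a log2 fold change of 0.08 (SE 0.122, 95% interval -0.20 to 0.36, edgeR adjusted p = 0.774).

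The annotation joins this pair. In GENCODE 29 (GRCh38), HLA-B (6:31269491-31357188, minus strand) is drawn as a gene that reaches into HLA-C (6:31268749-31272130, minus strand), so reads in HLA-C exons could be claimed by both models. Of the 50-base words in annotated HLA-B transcripts, 2.48% also occur in those of HLA-C, and no 100-base word is shared. How the authors assigned such reads is not stated in these sources, and their part in the ratio of HLA-B to HLA-C was not tested.

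**Figure D2:**
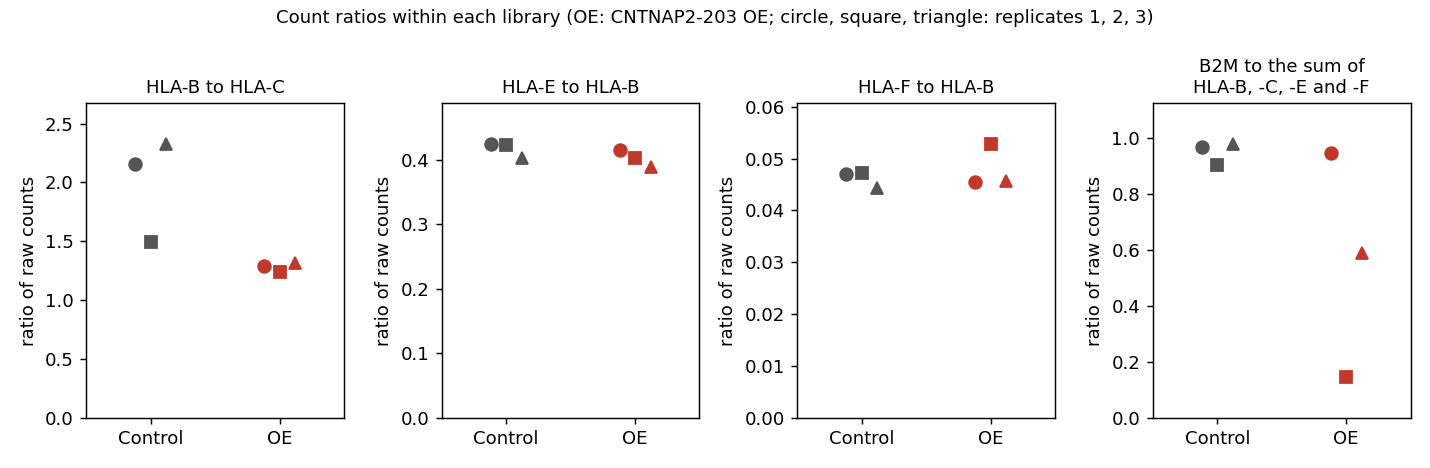
Ratios of raw counts within each library (y axes, from 0), control in grey and CNTNAP2-203 OE in red; circles, squares and triangles are replicates 1, 2 and 3. HLA-B to HLA-C is between 1.24 and 1.31 in CNTNAP2-203 OE and between 1.49 and 2.32 in control, and the ratio of B2M to the heavy chains is 0.144 in CNTNAP2-203 OE replicate 2.

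HLA-E varied across the libraries much as HLA-B did. HLA-E, a nonclassical chain that presents leader peptides of other class I molecules to the NKG2A receptor, was at 424, 375 and 397 CPM in control and at 324, 314 and 398 CPM in CNTNAP2-203 OE. Its replicates 1 and 2 lay below every control, and replicate 3 lay within the control range. The log2 fold change was -0.21 (SE 0.119, 95% interval -0.48 to 0.07, edgeR adjusted p = 0.414), and -0.33 without CNTNAP2-203 OE replicate 3 (edgeR adjusted p = 0.0790), where HLA-B, HLA-E and TAP1 were the 3 members with an unadjusted p under 0.05, against 17.6% of all genes in that fit. There were between 0.403 and 0.424 HLA-E counts for each HLA-B count in control and between 0.390 and 0.415 in CNTNAP2-203 OE, ranges that overlapped.

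HLA-F, a nonclassical chain with low surface levels on most cells, was at 47.0, 41.7 and 43.6 CPM in control and at 35.5, 41.2 and 46.7 CPM in CNTNAP2-203 OE. The groups overlapped, with a log2 fold change of -0.10 (SE 0.124, 95% interval -0.39 to 0.18, edgeR adjusted p = 0.713). It overlaps the antisense gene HLA-F-AS1, which had between 130 and 253 counts, and strand was not marked in these libraries.

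B2M, the light chain shared by all class I molecules, had the widest spread of the 9 genes. It was at 1869, 1711 and 1806 CPM in control replicates 1, 2 and 3, and at 1654, 254 and 1321 CPM in CNTNAP2-203 OE replicates 1, 2 and 3. All CNTNAP2-203 OE libraries lay below all controls, but by very different amounts. Replicate 2 was 6.52-fold below replicate 1 and 5.20-fold below replicate 3 of its own group, and between 6.74-fold and 7.37-fold below the controls. Its value rests on 10481 counts, against 46213 to 76298 in the other libraries, so counting error, 0.977% of the value, is far smaller than the gap. The fitted log2 fold change was -0.74 (SE 0.657, 95% interval -2.40 to 0.92, edgeR adjusted p = 0.616). Without CNTNAP2-203 OE replicate 2 it was -0.27 (edgeR adjusted p = 0.324), the smallest of the fits that leave out 1 library, and without CNTNAP2-203 OE replicate 1 it was -1.19, the largest.

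The low value of B2M in that library had no counterpart of that size in the heavy chains. For each count of the 4 heavy chains together there were 0.967, 0.904 and 0.977 B2M counts in control and 0.946, 0.144 and 0.589 in CNTNAP2-203 OE. The first CNTNAP2-203 OE library was thus within the control range, the third below it and the second far below it. Replicates 1 and 2 of CNTNAP2-203 OE had similar values of HLA-B, HLA-C and HLA-E, with HLA-B and HLA-E at their lowest in replicate 2. TAP1 was also at its lowest there, at 251 CPM against 295 to 332 CPM in the other libraries, while NLRC5 was at its highest.

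By GENCODE 29 coordinates, B2M (15:44711487-44718877, plus strand) overlaps no other gene of the count table. It shares no 50-base word with the HLA transcripts compared. Its neighbours PATL2 and TRIM69 had 125 and 2084 counts in CNTNAP2-203 OE replicate 2, against 117 to 197 and 1887 to 2458 in the other libraries. Among the 6147 genes at or above an average log2 CPM of 5, B2M was 1 of 4 that were more than 4-fold below every other library in replicate 2, with RPS10-NUDT3, ZNF33B and ZNF664, named after their values were seen. Such genes numbered 13 in CNTNAP2-203 OE replicate 3 and 1 or 2 in each of the others. The 1 in control replicate 1 was CNTNAP2, with 0 counts there, which reached the floor through the CNTNAP2-203 OE libraries. What set these values apart was not tested.

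TAP1 and TAP2 encode the subunits of the peptide transporter. TAP1 was at 332, 301 and 319.5 CPM in control and at 295, 251 and 295 CPM in CNTNAP2-203 OE, with every CNTNAP2-203 OE library below every control. The log2 fold change was -0.18 (SE 0.104, 95% interval -0.42 to 0.06, edgeR adjusted p = 0.418). TAP2 was at 259.8, 267 and 267 CPM in control and at 269, 266 and 229.7 CPM in CNTNAP2-203 OE. CNTNAP2-203 OE replicate 3 was the low library there, and the log2 fold change of -0.05 (SE 0.0978, 95% interval -0.28 to 0.17, edgeR adjusted p = 0.818) became 0.01 without it. TAP1 overlaps PSMB9 on the opposite strand, which had 4208 to 5514 counts beside its own 10337 to 13499.

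TAPBP, the tapasin gene, was at 630.0, 578 and 578 CPM in control and at 539.9, 549 and 576 CPM in CNTNAP2-203 OE. The groups did not overlap, but replicate 3 of CNTNAP2-203 OE was close to control replicates 2 and 3. The log2 fold change was -0.10 (SE 0.0905, 95% interval -0.31 to 0.11, edgeR adjusted p = 0.603).

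NLRC5, the class I transactivator, was at 50.3, 49.4 and 48.1 CPM in control and at 53.3, 56.3 and 43.5 CPM in CNTNAP2-203 OE. Replicates 1 and 2 lay above the controls and replicate 3 below them. The log2 fold change was 0.05 (SE 0.118, 95% interval -0.22 to 0.32, edgeR adjusted p = 0.858), and -0.02 without CNTNAP2-203 OE replicate 2. For TAP1, TAP2, TAPBP and NLRC5, the 95% intervals thus reached from -0.42 to 0.06, -0.28 to 0.17, -0.31 to 0.11 and -0.22 to 0.32, and differences within them were not resolved with 3 libraries a group.

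**Figure D3:**
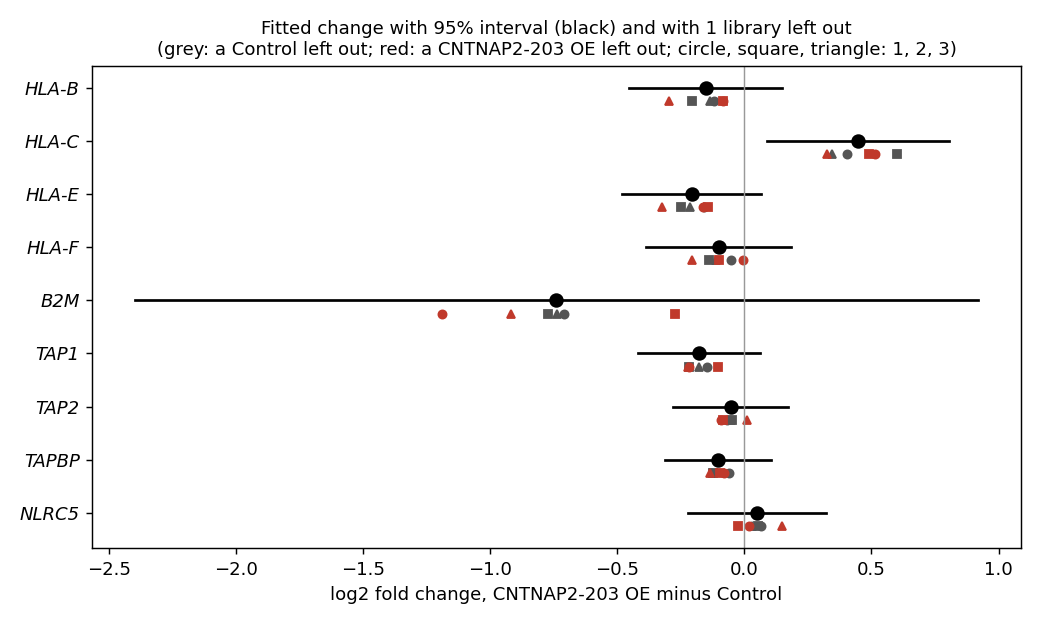
Log2 fold change (x axis, CNTNAP2-203 OE minus control) of the 9 genes with its 95% interval in black, and below it the values with 1 library left out, grey for a control and red for a CNTNAP2-203 OE library (circle, square and triangle for replicates 1, 2 and 3). The interval of HLA-C, 0.09 to 0.80, is the 1 that leaves out 0, and that of B2M, -2.40 to 0.92, is the widest.

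The spread between libraries was larger in CNTNAP2-203 OE than in control for 7 of the 9 genes, all but HLA-C and TAPBP. The same count over all tested genes was not made. Over all of them, CNTNAP2-203 OE replicate 3 differed from its group by 0.720 and 0.740, and the controls from each other by 0.570 to 0.614. A wider spread is therefore not shown to be particular to these genes. The coefficient of variation was between 1.57% (TAP2) and 17.9% (HLA-C) in control and between 3.33% (TAPBP) and 68.0% (B2M) in CNTNAP2-203 OE. Counting error was at most 2.58% of a value, for HLA-F.

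Likeness to other genes was measured as the root mean square difference of centred log2 CPM over the 6 libraries, among 10323 genes at or above an average log2 CPM of 3. Nearest to the mean profile of the 9 genes were PPP1R2 (0.0369), POLR3C (0.0382), EPSTI1 (0.0405) and MIDN (0.0412), nearer than any member, of which TAP1 (0.0486) and HLA-E (0.0899) came closest and B2M was farthest (0.889). That profile itself varied little, by 0.140 on the log2 scale, and was lowest in CNTNAP2-203 OE replicate 2, where B2M was low. Nearest to HLA-C were RNASEH2C (0.0538), HMCES (0.0602), VOPP1 (0.0818) and TBC1D7 (0.0857), whereas no other member was nearer to it than 0.331 (TAPBP). With 6 libraries and this many candidates, small distances are found for many profiles.

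Genes that supply and edit peptides were described from a list of 19, all tested. None was called by edgeR. At an unadjusted p under 0.05 there were 2 of 19, both higher, again beside 17.2% of all tested genes. Positive log2 fold changes numbered 13 of 19 and their median over the list was 0.06, where 49.6% of all tested genes were positive. Both genes under that p were called by DESeq2, which called 7.62% of the genes it adjusted. They were CALR, calreticulin, the chaperone that holds heavy chains in the loading complex, and THOP1, a cytosolic peptidase that trims and destroys peptides. CALR was at 912 ± 33.7 CPM in control and 1290 ± 188 CPM in CNTNAP2-203 OE (SD, n = 3 each; log2 fold change 0.50, SE 0.121, edgeR adjusted p = 0.0970, DESeq2 adjusted p = 0.0147). Without CNTNAP2-203 OE replicate 3 it passed edgeR's test as well, with a log2 fold change of 0.37 (adjusted p = 0.0369). That fit called 2.8% of all genes. THOP1 was at 76.3 ± 7.31 CPM in control and 104 ± 8.63 CPM in CNTNAP2-203 OE (log2 fold change 0.45, edgeR adjusted p = 0.100, DESeq2 adjusted p = 0.0229). ERAP1, the aminopeptidase that trims peptides in the endoplasmic reticulum, was at 118 ± 10.1 CPM in control and 101 ± 11.3 CPM in CNTNAP2-203 OE (log2 fold change -0.23, edgeR adjusted p = 0.378).

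PSMB8, PSMB9 and PSMB10 are the catalytic subunits of the interferon-induced immunoproteasome and replace PSMB5, PSMB6 and PSMB7. Their log2 fold changes were 0.09, 0.24 and 0.06, and those of the constitutive subunits 0.15, 0.40 and 0.27, with no call among the 6 by edgeR or DESeq2. PSMB6 was the 1 of the 6 with an unadjusted p under 0.05, at 126 ± 2.68 CPM in control and 166 ± 32.7 CPM in CNTNAP2-203 OE. PSMB9 to PSMB6 gave 0.910, 0.868 and 0.895 in control and 0.804, 0.809 and 0.776 in CNTNAP2-203 OE (exact permutation p = 0.1, adjusted p = 0.3 over the 9 ratios). The groups of that ratio did not overlap, while those of PSMB8 to PSMB5 (1.53 to 1.69 in control and 1.26 to 2.20 in CNTNAP2-203 OE) and of PSMB10 to PSMB7 did.

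Of 17 listed class I-like and other heavy chain genes, 15 were tested. HLA-G, with at most 6 counts in a library, and CD1D, with at most 3, were too low. None was called by edgeR, and the median log2 fold change was 0.01. At an unadjusted p under 0.05, 3 were higher and 1 lower, against 9.41% and 7.84% of all tested genes. Those 4 were ligands of the activating receptor NKG2D. DESeq2 called 1 gene of the list higher and 1 lower, MICB and ULBP1, beside 7.62% of the genes it adjusted. MICB was at 28.4 ± 4.76 CPM in control and 45.2 ± 5.74 CPM in CNTNAP2-203 OE (SD, n = 3 each; log2 fold change 0.67, edgeR adjusted p = 0.0876, DESeq2 adjusted p = 0.00820). MICA was at 39.2 ± 3.81 CPM in control and 52.1 ± 4.59 CPM in CNTNAP2-203 OE (log2 fold change 0.41, edgeR adjusted p = 0.138), and ULBP2, named after its values were seen, had a log2 fold change of 0.25. ULBP1 was at 6.72 ± 1.27 CPM in control and 3.50 ± 1.22 CPM in CNTNAP2-203 OE (log2 fold change -0.94, edgeR adjusted p = 0.139, DESeq2 adjusted p = 0.0229). The groups did not overlap in 6 of the 15 tested genes of the list, these 4 among them, beside 26.5% of all tested genes. The other listed ligands of this receptor were ULBP3, RAET1E, RAET1G and RAET1L, also named after their values were seen. Their log2 fold changes were 0.25, -0.09, -0.05 and 0.01, each with a 95% interval that held 0. ULBP3 was close to ULBP2 in log2 fold change, and its groups did not overlap either. It was at 7.88 to 8.09 CPM in control and 8.98 to 10.3 CPM in CNTNAP2-203 OE.

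Transcription factors, chromatin repressors and interferon signalling genes that act on class I expression made a list of 31, all tested. None was called by edgeR, and the median log2 fold change was -0.03. The 6 of 31 with an unadjusted p under 0.05, 2 higher and 4 lower, were a share close to the 17.2% of all tested genes. EZH2 and EED, subunits of the Polycomb complex PRC2, which is known to silence class I genes in some tumours, were at 52.0 ± 1.71 CPM in CNTNAP2-203 OE against 38.4 ± 2.19 CPM in control (log2 fold change 0.44, edgeR adjusted p = 0.0766, DESeq2 adjusted p = 0.00814) and at 38.6 ± 0.426 against 29.3 ± 0.805 CPM (log2 fold change 0.40, edgeR adjusted p = 0.0932, DESeq2 adjusted p = 0.0139). SUZ12, the other PRC2 subunit in the list, was named after its values were seen. It was at 39.6 ± 9.36 CPM in CNTNAP2-203 OE against 39.5 ± 3.88 CPM in control (log2 fold change 0.003, edgeR adjusted p = 0.994). The kinase gene JAK1, which relays interferon signals, was at 129 ± 22.3 CPM in CNTNAP2-203 OE against 184 ± 4.48 CPM in control (log2 fold change -0.51, edgeR adjusted p = 0.119, DESeq2 adjusted p = 0.0292). Without CNTNAP2-203 OE replicate 3, JAK1 was called by edgeR (log2 fold change -0.38, adjusted p = 0.0413), in a fit that called 2.8% of all genes. DESeq2 called 2 genes of the list higher and 2 lower, beside 7.62% of the genes it adjusted. IFNGR1, a receptor chain for interferon gamma named after its values were seen, was also called lower by DESeq2 (log2 fold change -0.39, DESeq2 adjusted p = 0.0406).

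No factor named here that drives class I promoters was called by edgeR or DESeq2. IRF1, an interferon-induced factor that binds class I promoters, was at 218 ± 10.6 CPM in control and 218 ± 14.1 CPM in CNTNAP2-203 OE (SD, n = 3 each; log2 fold change -0.00, edgeR adjusted p = 0.991). RFX5, a subunit of the factor through which NLRC5 is recruited, was at 39.4 ± 11.3 CPM in control and 48.8 ± 4.54 CPM in CNTNAP2-203 OE (log2 fold change 0.31, edgeR adjusted p = 0.483).

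**Figure D4:**
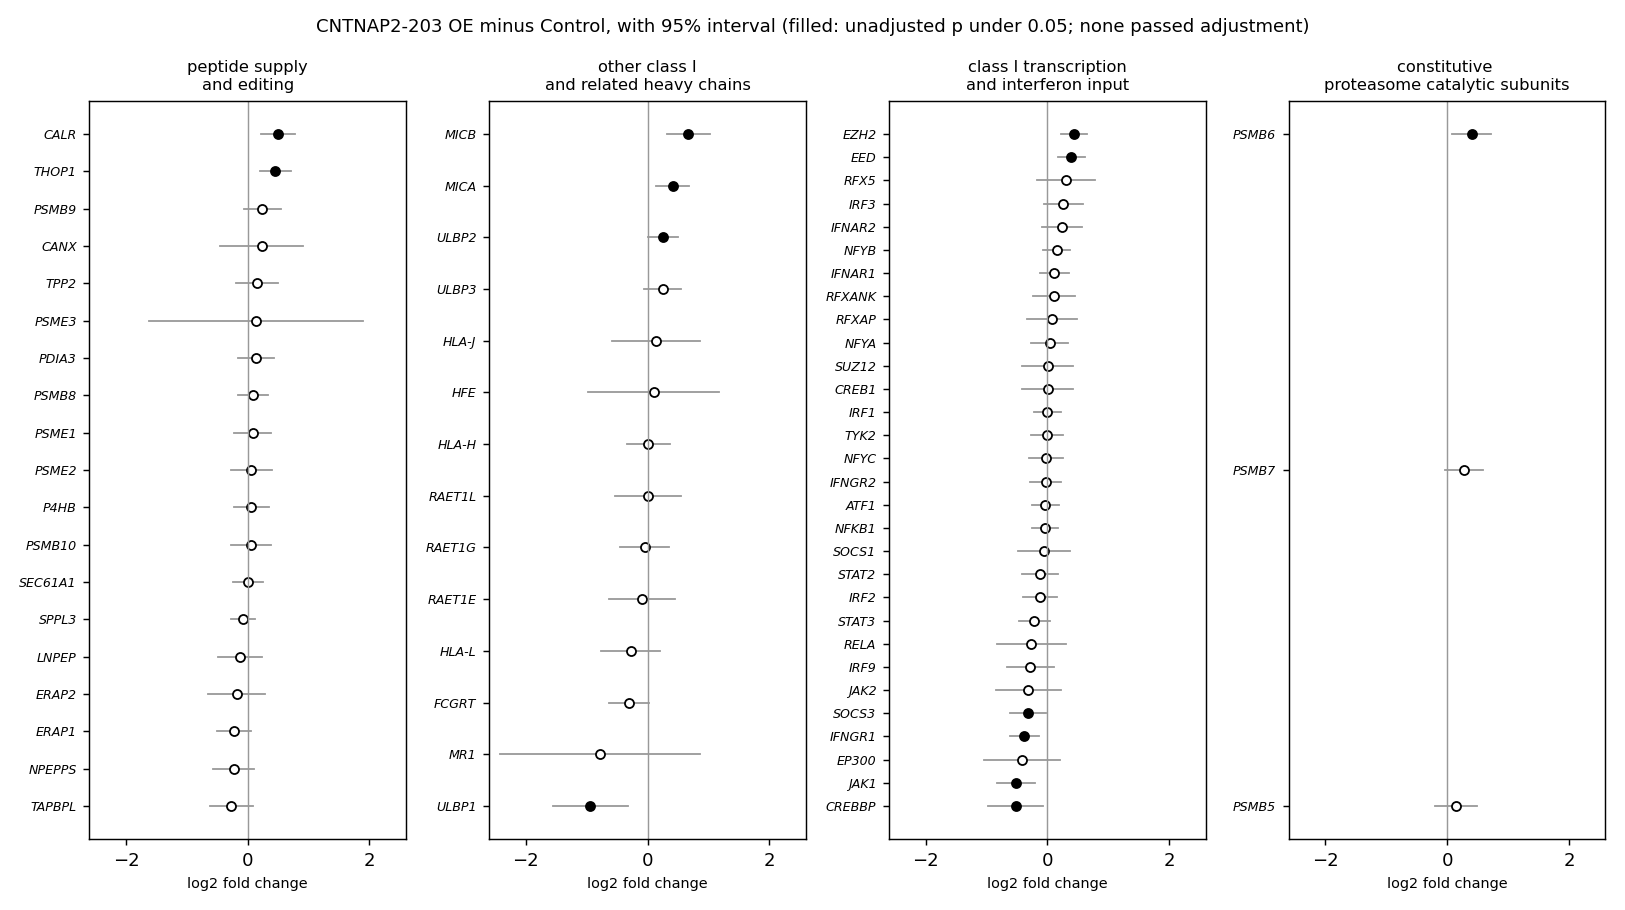
Log2 fold change (x axis, CNTNAP2-203 OE minus control) with its 95% interval for tested genes of the 4 pathway lists, without those not reported here; filled points have an unadjusted p under 0.05. None passed adjustment over all genes in edgeR, and MICB at 0.67 and ULBP1 at -0.94 mark the ends among the filled points.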

How the data were processed

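Per the labels' protocols, ribosomal RNA was removed before library construction with the TruSeq v2 chemistry, an unstranded kit. Trim Galore 0.4.4 and the build hg38 are named in the submitters' processing notes. The aligner, the counter, the annotation and the handling of reads that match several genes: not given in the sources used here. Per gene, the authors deposited raw counts, which were tested, and log2 values, taken as log2(FPKM + 1). This scale was checked by deriving each gene's length from its count and its FPKM: the median variation across libraries was 0.230% with the offset of 1 and 2.59% without it.

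Genes were filtered with filterByExpr (minimum count 10), scaled by TMM (factors 0.951 to 1.02) and tested with edgeR 4.0.16 in R 4.3.3 with group as the only term, by the robust quasi-likelihood test. Each SE is the size of the log2 fold change over the root of its F statistic. Alternatives used DESeq2 1.42.0 and limma 3.58.1. The scripts were tested on simulated data with 200 changed genes. Of the changes of 1.5-fold, 2-fold and 4-fold, 10.4%, 47.8% and 77.3% were called, and 10.9% of the calls were false. Most changes of 1.5-fold were thus missed in that simulation. Coordinates are from GENCODE 29. Named genes were the 9 members, fixed pathway genes, the 3 with the smallest p in each list and the 4 nearest in profile to the mean of the members and to the member with the smallest p. Members and lists were chosen with earlier results of these data known. Promoters were matched by symbol for 7 of 9 members. Intervals and adjusted p-values of members come from the fit on all genes. Some listed genes are not reported here.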

Additional observations from a re-analysis of the deposited data

How the results depend on the processing

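None of the 9 genes was called under any of 16 alternatives, where the smallest adjusted p was 0.0790, and 140 of 142 values kept their direction. The exceptions were NLRC5, at -0.0248 without CNTNAP2-203 OE replicate 2 (log2 fold changes of -0.0248 to 0.149 over the libraries left out), and TAP2, at 0.0124 without CNTNAP2-203 OE replicate 3 (-0.0914 to 0.0124). Calls over all genes, 150 higher and 112 lower, moved far more, to 650 and 475 by DESeq2, 97 and 69 by limma-voom, and 99 higher by limma-trend. Leaving out 1 library gave 8 to 310 higher and 6 to 235 lower: the highest 2 counts came when CNTNAP2-203 OE replicate 3 was omitted, and omitting replicate 2 or 1 of that group gave 43 and 30 or 16 and 7. Omitting control replicates 1, 2 and 3 gave 12, 8 and 12 higher, with 6 lower each time. With the replicate block they were 11 and 6. Same-numbered libraries did not deviate together (correlations -0.08, 0.05 and -0.03), and not every library correlated best with its own number. The labels do not say whether the numbers pair the libraries, and these correlations cannot settle it. DESeq2 called 7.62% of the genes it adjusted. Its calls in the lists were 2 higher of 19 for peptide supply, and 1 higher and 1 lower of 15 tested class I-like genes. For transcription and interferon input they were 2 higher and 2 lower of 31. Leaving out 1 library gave 0 to 1 higher for peptide supply and 0 to 1 lower for transcription and interferon input. Both calls came without CNTNAP2-203 OE replicate 3, in a fit that called 2.8% of all genes. Summing HLA-B and HLA-C, and the looser interferon motif, were chosen after seeing the data. The cause of these shifts was not tested.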
